A study of Mus musculus with 4 samples.

Results

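The genes described here are 10 genes of lung fibroblasts, the connective tissue cells that build and maintain the wall of the airspaces. They are Tcf21, Pdgfra, Fgf10, Wnt2, Npnt, Mfap4, Pcolce2, Pi16, Inmt and Scn7a. They were taken by gene symbol from the 23282 gene rows of the lung files, and each symbol matched 1 row. The members were chosen by their measured levels in these same 4 libraries, and the other gene lists with earlier results known, so the values that follow are a description and no test was made on them. The whole lung was measured by sequencing of mRNA 3' ends in male CDF1 mice labelled as postnatal day 28, which the methods give in weeks as the age at purchase, so the lungs were taken later, in 4 groups with 10 mice in each per the design text. The groups were the untreated normal control E(-)T(-), the normal exercise group E(+)T(-), the cancer control E(-)T(+) and the cancer exercise group E(+)T(+). E stands for high-intensity treadmill running, and T for injection of CT26 cells, a mouse colorectal carcinoma line, into the tail vein. Each group gave 1 lung library, and the sources do not say directly how many mice gave it: a representative mouse per group is stated for the muscle samples, and the lungs are said to have been analysed in a similar way. So the spread between mice is unknown. Wherever 4 values stand together, they follow the order normal control, normal exercise, cancer control, cancer exercise.

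Fibroblasts of the lung fall into classes that sit in different places. Alveolar fibroblasts lie beside the epithelium of the airspaces, give it growth factors such as Fgf10 and Wnt2, and depend on the transcription factor Tcf21 during lung development. Adventitial fibroblasts form the cuffs around vessels and airways and are marked by Pi16. Cells of both classes carry the receptor Pdgfra or the matrix genes listed here to differing degrees, and injured or tumor-bearing tissue also holds activated fibroblasts that make large amounts of fibrillar collagen.

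The libraries held between 9354496 and 13368090 reads assigned to genes. They differed widely in hemoglobin genes, which took 14.33%, 14.17%, 1.43% and 31.43% of the reads in the 4 libraries, and whose part in the levels of the members was not tested. Lung markers were present in all 4 libraries. Reads of the surfactant gene Sftpc numbered 137668, 153667, 11268 and 69687 in that order. Those of the club cell gene Scgb1a1 numbered 504273, 566790, 106838 and 450639. The cancer control library stood apart. A list of 6 cell division genes had a summed normalized count of 9730 there, against 310 in the normal control, 655 in the normal exercise library and 3250 in the cancer exercise library. In RNA of a whole tissue, fewer cells of a type and less RNA per cell cannot be told apart.

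Of the 10 genes, 7 were lower in the cancer control than in the normal control by 2-fold or more, where 25.7% of all genes with enough reads were lower by that limit, and these 7 had higher levels again in the cancer exercise library. Pcolce2, Scn7a, Tcf21, Mfap4 and Inmt were lower by 23.7-fold to 44.7-fold, and Wnt2 and Npnt by 7.53-fold and 5.81-fold. Pdgfra, Fgf10 and Pi16 did not share this pattern, so genes that share the label of lung fibroblasts did not move as 1 group, although each had reads in all 4 libraries. Pdgfra differed by 1.39-fold at most in the comparisons with a tumor-bearing group. Fgf10 was highest in the cancer control, and Pi16 was highest in the cancer exercise library. The plot of levels by library shows these forms side by side.

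**Figure D1:**
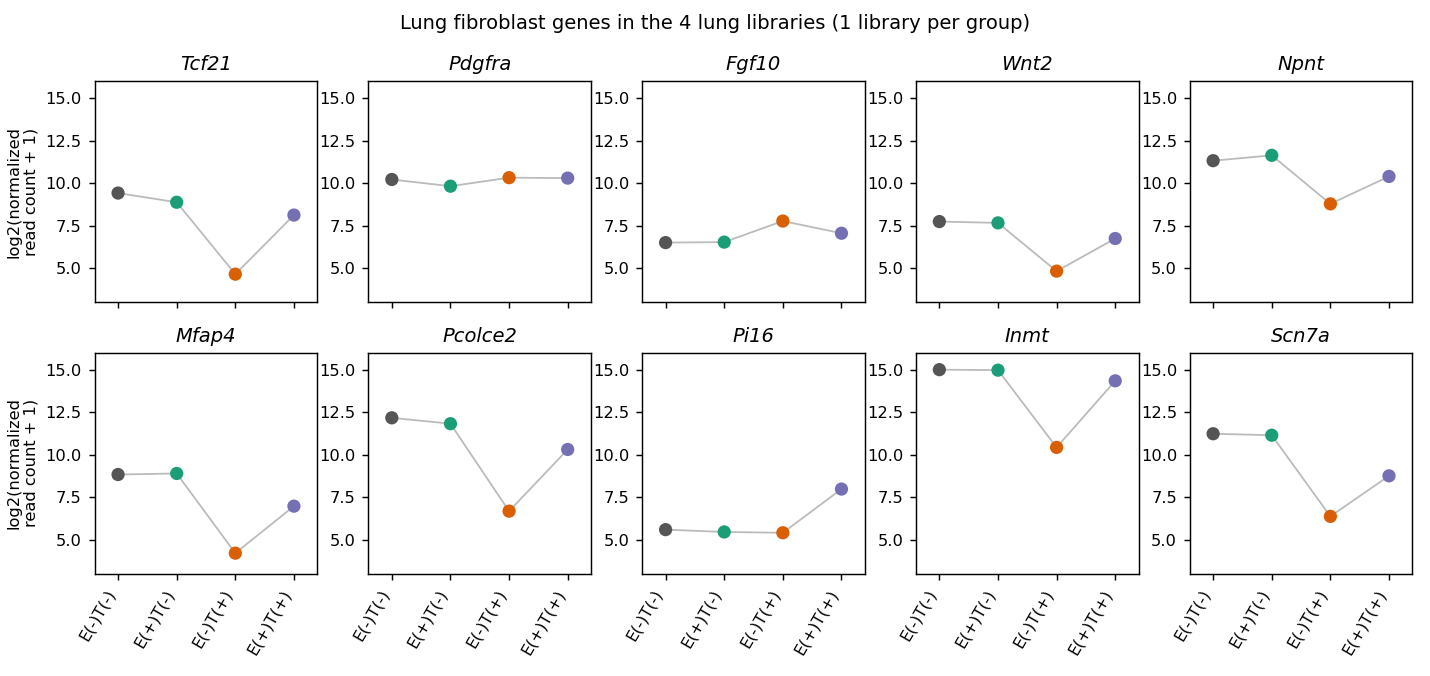
Deposited log2(normalized read count + 1) of each of the 10 genes (vertical axis) in the 4 libraries (horizontal axis, 1 point per library, with lines only to guide the eye). For 8 genes the lowest point is E(-)T(+), at 4.65 for Tcf21 and 10.43 for Inmt; in Pi16 that point lies close to those of both libraries without tumor, whereas Pdgfra stays between 9.82 and 10.32, Fgf10 peaks in E(-)T(+) and Pi16 in E(+)T(+).

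The promoters of 4 genes are shown because their levels went apart: Pcolce2, Scn7a and Inmt had large differences between the groups without exercise, and Pdgfra did not. Each sequence runs from 250 bases before to 50 bases after the start site as RefSeq gives it on GRCm38.p6, 5′ to 3′ on the strand of the gene. Capitals mark the E-box CANNTG, the kind of element that basic helix-loop-helix factors such as Tcf21 bind, and the TATA box TATAAA.
Inmt (chr6:55174941-55175240, minus strand): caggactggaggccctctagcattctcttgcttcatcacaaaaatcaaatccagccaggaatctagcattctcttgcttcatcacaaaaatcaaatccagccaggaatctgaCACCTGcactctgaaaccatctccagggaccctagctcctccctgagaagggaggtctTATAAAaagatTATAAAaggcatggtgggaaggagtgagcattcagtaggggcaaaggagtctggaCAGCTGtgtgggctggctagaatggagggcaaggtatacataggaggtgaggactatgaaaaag
Scn7a (chr2:66784861-66785160, minus strand): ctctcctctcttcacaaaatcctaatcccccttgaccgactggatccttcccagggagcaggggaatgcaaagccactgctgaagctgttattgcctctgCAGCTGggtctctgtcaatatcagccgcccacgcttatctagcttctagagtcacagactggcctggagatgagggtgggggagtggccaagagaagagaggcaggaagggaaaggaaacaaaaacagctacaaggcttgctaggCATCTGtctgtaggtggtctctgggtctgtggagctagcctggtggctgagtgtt
Pcolce2 (chr9:95637378-95637677, plus strand): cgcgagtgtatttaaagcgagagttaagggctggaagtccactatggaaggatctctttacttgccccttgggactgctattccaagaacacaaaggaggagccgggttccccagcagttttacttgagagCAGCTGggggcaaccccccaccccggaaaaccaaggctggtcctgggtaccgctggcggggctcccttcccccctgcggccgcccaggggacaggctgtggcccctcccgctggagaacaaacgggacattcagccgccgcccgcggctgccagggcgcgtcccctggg
Pdgfra (chr5:75152001-75152300, plus strand): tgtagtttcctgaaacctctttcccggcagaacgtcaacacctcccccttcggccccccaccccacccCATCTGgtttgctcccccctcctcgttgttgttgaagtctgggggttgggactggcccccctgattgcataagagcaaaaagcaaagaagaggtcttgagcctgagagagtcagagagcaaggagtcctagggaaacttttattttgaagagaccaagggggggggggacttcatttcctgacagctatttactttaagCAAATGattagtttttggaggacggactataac

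The promoter table had entries for 9 of the 10 genes and 10 start sites. CANNTG, which reads the same on both strands, was in 7 of these 10 sequences, and it was in 72.3% of all 32851 promoters. The sequences shown hold 2 matches for Inmt, 2 for Scn7a, 1 for Pcolce2 and 2 for Pdgfra, so its presence did not separate genes that were low in the cancer control from Pdgfra. TATAAA, searched on both strands, was in the promoter of Inmt alone, with 2 matches, and in 13.6% of all promoters. The GC box GGGCGG was in 5 of the 10 sequences and in 35.7% of all. The letters TGANTCA (AP-1) and CTTTGAA (TCF/LEF) were in none of the 10 windows, against 7.81% and 5.14% of all. The Inmt window held 0 CpG dinucleotides, that of Wnt2 27 and the first of Npnt 32. A match of letters is not evidence of binding.

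Tcf21 encodes a transcription factor that specifies the mesenchyme of the lung and other organs (chr10:22817281-22820174, minus strand, GENCODE M21 on GRCm38, the assembly called mm10 in the submitters' notes). Its normalized read count was 683.5 in the normal control, 469.5 in the normal exercise library, 24.18 in the cancer control and 278.4 in the cancer exercise library, from 804, 511, 22 and 238 reads. The cancer control was the single low library, and the cancer exercise library lay below both libraries without tumor. The cancer control was lower than the normal control by a log2 difference of -4.77, and its exact 95% interval, which is for the log2 ratio of reads, ran from -5.51 to -4.22. The cancer exercise library was higher than the cancer control by 3.47 (2.90 to 4.23), and it was below the normal exercise library by -0.75 (-0.98 to -0.53). Such intervals hold counting error alone, and PCR copies of one molecule count as separate reads. An annotated antisense gene, Gm10824, covers the whole of Tcf21 and has no row of its own, and whether the counting used strand is not given in the sources used here, so reads of the pair cannot be told apart.

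Pdgfra encodes the alpha receptor for platelet-derived growth factors, which drives growth and migration of fibroblasts (chr5:75152292-75198215, plus strand). Normalized read counts of Pdgfra were 1188 in the normal control, 904.1 in the normal exercise library, 1280 in the cancer control and 1257 in the cancer exercise library, from 1398, 984, 1168 and 1075 reads. The cancer libraries and the untreated library were close together, and the normal exercise library was the lowest. The tumor effect without exercise was 0.11 on the log2 scale, with an interval of -0.01 to 0.22 that includes 0. The tumor effect with exercise was 0.48 (0.35 to 0.60). Of the 10 genes, Pdgfra had the smallest spread over the 4 libraries, 0.50 between the highest and the lowest log2 value, against 5.48 for Pcolce2.

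Fgf10 and Wnt2 are secreted ligands that fibroblasts send to the alveolar epithelium. Fgf10 (chr13:118669791-118792115, plus strand) had normalized read counts of 90.01 in the normal control, 91.8 in the normal exercise library, 218.0 in the cancer control and 132.2 in the cancer exercise library, from 106, 100, 199 and 113 reads. Its level was alike in both libraries without tumor and highest in the cancer control. The tumor effect without exercise was 1.27 (0.93 to 1.63), past the 2-fold limit, and the exercise effect with tumor was -0.72 (-1.07 to -0.38), within it. Wnt2 (chr6:17988940-18030585, minus strand) went the other way. Its normalized read counts were 213.4, 202.1, 27.46 and 106.5 in the 4 libraries, from 251, 220, 25 and 91 reads. Its tumor effect without exercise was -2.91 (-3.62 to -2.37), and its exercise effect with tumor was 1.92 (1.31 to 2.66). The ligands of this pair thus differed in direction in the cancer control.

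Among the secreted and matrix genes, Pcolce2 encodes an enhancer of the protease that trims procollagen into collagen (chr9:95637601-95698096, plus strand). It had the largest difference of all members. Normalized read counts stood at 4604 in the normal control, 3625 in the normal exercise library, 102.0 in the cancer control and 1268 in the cancer exercise library, from 5418, 3946, 93 and 1085 reads. The tumor effect without exercise was -5.48 (-5.81 to -5.20), and 0.3% of all filtered genes lay below it. The cancer exercise library was higher than the cancer control by 3.62 (3.33 to 3.96), and it remained lower than the normal control by 3.63-fold.

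Mfap4 encodes a glycoprotein that binds elastin and fibrillin in elastic fibres (chr11:61485431-61488900, plus strand). Mfap4 had normalized read counts of 456.6, 476.7, 17.61 and 125.2 in the 4 libraries, from 537, 519, 16 and 107 reads. Both tumor-bearing libraries lay below both libraries without tumor. The tumor effect was -4.62 without exercise (-5.52 to -3.99) and -1.92 with exercise (-2.24 to -1.63). The last 89 bases of Mfap4 overlap the end of Mapk7 on the other strand, and Mapk7 had 256, 244, 126 and 136 reads in the same order. Reads of Mfap4 and Mapk7 near that end cannot be told apart either.

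Npnt encodes nephronectin, a matrix protein of basement membranes that binds the integrin made of the alpha8 and beta1 chains (chr3:132881745-132950291, minus strand). The normalized read counts of Npnt were 2557 in the normal control, 3177 in the normal exercise library, 439.5 in the cancer control and 1346 in the cancer exercise library, from 3009, 3459, 401 and 1151 reads. It was the only one of the 10 genes whose interval lay above 0 for the exercise effect without tumor, which was 0.31 (0.24 to 0.38) and within the 2-fold limit. The tumor effect was -2.54 (-2.69 to -2.39) without exercise, the smallest of the 7 in size. The alpha8 integrin gene Itga8, named after its values were seen, had 682, 472, 14 and 107 reads in the 4 libraries, and its tumor effect without exercise was -5.15 (-6.12 to -4.48). Itgb1, the partner chain that most cells make, had 7905, 8131, 5170 and 4235 reads.

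Pi16 encodes a secreted protein of the CAP family and marks adventitial fibroblasts (chr17:29317680-29330593, plus strand). For Pi16 the normalized read counts were 47.5, 43.11 and 41.7 in the normal control, the normal exercise library and the cancer control, from 56, 47 and 38 reads, and 252.2 in the cancer exercise library, from 216 reads. It was thus level in 3 libraries and high in the cancer exercise library alone. The cancer exercise library was above the normal control by 2.38 (1.98 to 2.86), above the normal exercise library by 2.52 (2.09 to 3.04) and above the cancer control by 2.57 (2.10 to 3.14). The tumor effect without exercise was -0.18, with an interval of -0.83 to 0.43 that includes 0. In a list of 5 leukocyte genes, the neutrophil genes S100a8 and S100a9 were also highest in the cancer exercise library, with 77269 and 75784 reads there and between 1608 and 7143 in the other libraries. The summed normalized count of that list was 4880, 12200, 8500 and 181000 in the 4 libraries, most of it from S100a8 and S100a9. In the cancer exercise library against the normal control, 2 genes of the list were higher, 1 lower and 2 within the limit, with a median of 0.88. In that comparison 14.8% of all filtered genes were higher and 14.4% lower. The part of the list in the level of Pi16 was not tested. The general leukocyte gene Ptprc had 1384, 1349, 360 and 1857 reads.

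Inmt encodes an enzyme that puts methyl groups on indole amines (chr6:55170626-55175043, minus strand). Its normalized read counts were 32740 in the normal control, 32090 in the normal exercise library, 1379 in the cancer control and 20780 in the cancer exercise library, from 38533, 34936, 1258 and 17775 reads. The cancer exercise library exceeded the cancer control by 15.1-fold, the largest exercise effect with tumor among the members, at 3.91 on the log2 scale (3.83 to 4.00). Scn7a encodes a sodium channel that senses salt in some tissues (chr2:66673425-66784914, minus strand). Its normalized read counts were 2408, 2265, 82.29 and 432.8 in the 4 libraries, from 2833, 2466, 75 and 370 reads. Its level in the cancer exercise library stayed furthest below the untreated library of all members, by -2.47 (-2.64 to -2.32) or 5.55-fold. These genes were alike in the cancer control, at -4.57 and -4.85, and unlike in the cancer exercise library, where Inmt was within 1.58-fold of the untreated library.

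The exercise effect without tumor asked what running changed in healthy lungs. None of the 10 genes passed the 2-fold limit, and 9.98% of the 15164 genes with a mean normalized read count of at least 4 did so, 5.28% higher and 4.7% lower. All 10 members passed that filter. The median of the members was -0.08, that of all filtered genes was 0.00, and 7 members lay below 0 and 3 above. Tcf21 had the largest difference, at -0.54 (-0.70 to -0.38), followed by Pdgfra at -0.39 (-0.51 to -0.28) and Pcolce2 at -0.35 (-0.40 to -0.29). The intervals of Fgf10, Wnt2, Mfap4 and Pi16 included 0. Fgf10, at 0.03, and Mfap4, at 0.06, changed sign when libraries were scaled by their totals with or without the hemoglobin genes.

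The tumor effect without exercise, which asked what cancer changed in resting mice, gave 7 members lower and 1 higher by 2-fold or more. Of all filtered genes 46.2% passed that limit, 25.7% lower and 20.6% higher. The median of the members was -3.74 and that of all filtered genes -0.03. The members were chosen with these values known, so nothing is read from the difference.

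In the exercise effect with tumor, which asked what running changed in cancer-bearing mice, 8 members were higher and 0 lower, where 42.0% of all filtered genes passed the limit, 24.3% higher and 17.7% lower. The median of the members was 2.47, with a range of -0.72 for Fgf10 to 3.91 for Inmt. The comparison shares the cancer control library with the one before it. A low value in that library lowers the former and raises the latter, so their opposite signs are not independent. Scaling by total reads only shifted the all-gene median to -0.59 here and the members' median to 1.87. The same 8 members were then higher, and Fgf10 was lower at -1.32. Among all filtered genes 2486 were higher and 5371 lower under that scaling, 51.8% in all.

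The tumor effect with exercise does not use the cancer control library. Here 4 members were lower by 2-fold or more, namely Scn7a (-2.39), Mfap4 (-1.92), Pcolce2 (-1.51) and Npnt (-1.24), and Pi16 was higher. Of all filtered genes 27.9% passed the limit, 13.0% lower and 14.9% higher. The median of the members was -0.84. Wnt2 (-0.92), Tcf21 (-0.75) and Inmt (-0.63) lay within the limit, with intervals that ended below 0. Under library totals, which put the all-gene median at -0.41, these 3 genes passed the limit as well and 7 members were lower. That scaling put 3665 of all filtered genes lower and 1440 higher, 33.7% in all. In the cancer exercise library against the normal control, 4 members were lower and 1 higher by 2-fold or more, against 14.4% and 14.8% of all filtered genes, 29.2% in all. Under library totals alone 7 were lower and 1 higher, where 4342 of all filtered genes were lower and 1391 higher, 37.8% in all. Wnt2, at 1.99-fold lower, lay just inside the limit, and Tcf21, at 2.45-fold lower, was the nearest member outside it.

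**Figure D2:**
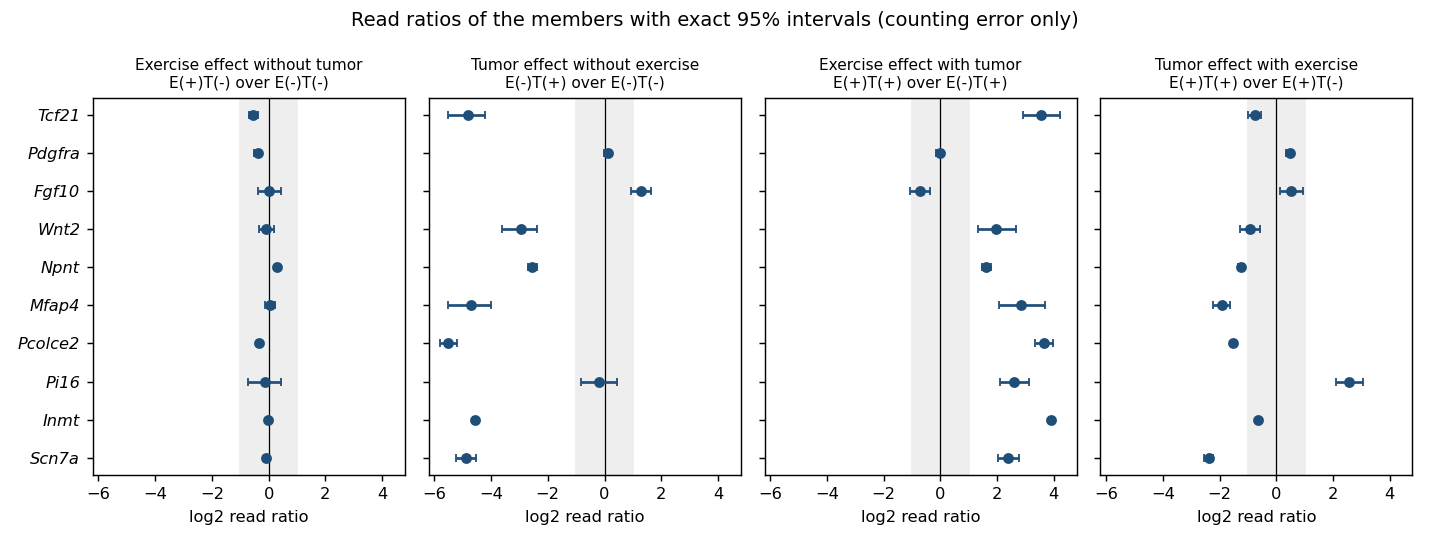
Log2 ratio of reads (horizontal axis), scaled by effective library sizes, for each of the 10 genes (vertical axis) in 4 comparisons, with bars for exact 95% intervals that cover counting error only and shading for differences under 2-fold. All points lie in the shading for the exercise effect without tumor, while 7 lie below -2 for the tumor effect without exercise, from -2.54 for Npnt to -5.50 for Pcolce2.

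Ratios of reads between members within a library need no scaling between libraries. For every read of Tcf21 there were 1.74 reads of Pdgfra in the normal control (95% exact interval 1.59 to 1.90), 1.93 in the normal exercise library (1.73 to 2.15), 53.1 in the cancer control (34.9 to 85.0) and 4.52 in the cancer exercise library (3.92 to 5.22). The ratio of Fgf10 to Wnt2 was 0.422 (0.333 to 0.532), 0.455 (0.355 to 0.578), 7.96 (5.24 to 12.6) and 1.24 (0.934 to 1.66) in the same order. Both ratios were thus highest in the cancer control and intermediate in the cancer exercise library. Inmt per read of Tcf21 moved less, at 47.9 (44.7 to 51.5), 68.4 (62.6 to 74.8), 57.2 (37.6 to 91.6) and 74.7 (65.7 to 85.2). The ratio of Scn7a to Tcf21 was 3.52 in the normal control, 4.83 in the normal exercise library, 3.41 (2.10 to 5.76) in the cancer control and 1.55 (1.32 to 1.84) in the cancer exercise library, the lowest. Pi16 per read of Pcolce2 stood at 0.0103 and 0.0119 without tumor, and at 0.409 (0.272 to 0.602) in the cancer control and 0.199 (0.171 to 0.231) in the cancer exercise library. These ratios are the same under every scaling of the libraries.

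**Figure D3:**
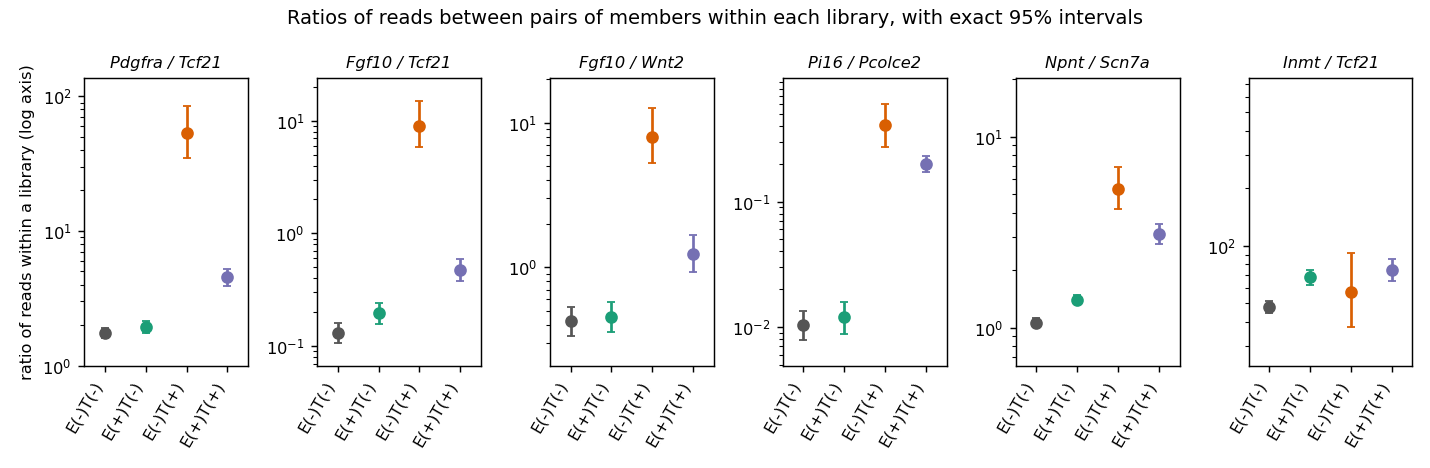
Ratio of reads between pairs of members within each library (vertical log axis, 1 panel per pair) in the 4 groups (horizontal axis), with bars for exact 95% intervals that cover counting error only. Pdgfra per Tcf21 goes from 1.74 in E(-)T(-) to 53.1 in E(-)T(+), whereas Inmt per Tcf21 stays between 47.9 and 74.7.

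The counts in the lists that follow stand beside 25.7% lower and 20.6% higher over all filtered genes in the cancer control, and 14.4% and 14.8% in the cancer exercise library, each against the normal control. Other genes of alveolar fibroblasts were lower in the cancer control as a list. All 10 genes of that list were lower than in the normal control by 2-fold or more, with a median of -3.68. Limch1, Ces1d, Spon1 and Gpc3 had 9369, 4661, 1871 and 1576 reads in the normal control and 492, 552, 251 and 184 in the cancer control. In the cancer exercise library against the normal control, 6 of the 10 were lower and 0 higher, with a median of -1.58. A list of 6 transcription factors of lung mesenchyme was lower in full as well, with a median of -2.87. Its member Foxf1 had 2147, 2214, 605 and 3133 reads in the 4 libraries, and in the cancer exercise library it was above the untreated library by 1.01. It was the only one of the 6 above it there, since Meox2 (-2.12, named afterwards) was lower by the limit and the other 4 lay between -0.81 and -0.12, with a median of -0.27 for the list.

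Adventitial and collagen genes were divided. Of 13 adventitial genes besides the members, 7 were lower and 3 higher in the cancer control than in the normal control, with a median of -1.53. The higher ones were Cd34 (2.38), Dcn (1.26) and Serpinf1 (2.76), the last named after its values were seen. Gsn and Ly6a, the genes of the list with the highest mean counts, were among the 7 lower ones. They had 26227 and 8374 reads in the normal control and 7033 and 1701 in the cancer control. Dcn encodes decorin, a proteoglycan that most fibroblasts make, and had 4422, 3889, 8226 and 4818 reads in the 4 libraries. In the cancer exercise library against the normal control, where Pi16 was higher, 1 of the 13 was higher, 3 were lower and 9 were within the limit, with a median of 0.07. The higher one was Ackr3 (1.75), and the lower ones were Dpp4 (-2.13), Fbln1 (-1.73) and Col14a1 (-1.39), all named afterwards. In a list of 10 genes of activated matrix, 6 were higher and 1 lower in the cancer control, with a median of 1.28. Col1a2, a chain of type I collagen, was higher by 2.78 (2.72 to 2.83), from 3086 to 16384 reads. The lower one was Postn, periostin, named afterwards, at -4.72 (-5.22 to -4.31). In the cancer exercise library 5 of these 10 were higher and 2 lower than in the normal control, with a median of 0.98. Dcn, Fgf10 and Col1a2 were thus high in the same library in which Tcf21, Inmt and Pcolce2 were low.

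The receptors and partners of the members gave mixed values. Of 5 PDGF genes, 3 were lower and 0 higher in the cancer control than in the normal control, among them the ligand Pdgfa (-1.36) and the receptor Pdgfrb of pericytes (-1.50), whereas Pdgfra was level. Of 9 FGF genes, 3 were higher and 2 lower, shares near those of all filtered genes (20.6% and 25.7%). Fgfr2, the main receptor for Fgf10 on epithelium and named after its values were seen, was lower by -3.10 (-3.44 to -2.81), from 1007 to 90 reads. Fgfr1 was higher by 3.55 (3.38 to 3.74), from 285 to 2604 reads. Dusp6 (0.38) and Spry2, among the genes of this list with the highest mean counts, were within the limit in the cancer control. Spry4, named after its values were seen, was higher there, with 79, 63, 355 and 861 reads in the 4 libraries. The related FGF targets Etv5 and Etv4 went in opposite directions. Etv5 had 2018, 1032, 516 and 636 reads in the 4 libraries and was lower in the cancer control by -1.60 (-1.74 to -1.46), while Etv4, named after its values were seen, had 0, 12, 681 and 87 reads. Of 17 Wnt genes, 8 were lower and 0 higher in the cancer control. Among the Wnt genes with the highest mean counts, Ctnnb1 and Nkd1 were lower by the limit, and Wls and Tcf7l2 were within it. Reads over the libraries were 10882, 12113, 4184 and 5154 for Ctnnb1 and 2016, 2281, 482 and 1551 for Nkd1. The feedback gene Axin2, named after its values were seen, had 159, 69, 27 and 19 reads. Among 10 genes of elastic fibres and procollagen processing, 4 were lower and 2 higher, the latter a share near the 20.6% of all filtered genes. The lower ones were Ltbp4, from 2280 to 528 reads, and Mfap2, Fbln5 and Tll1, named afterwards. These 3 went from 347 to 63, 1083 to 320 and 13 to 4 reads. Eln and Itgb1 were within the limit. The higher ones were Pcolce (1.89), the sister gene of Pcolce2, and the procollagen protease Bmp1 (1.72), named afterwards. Pcolce and Pcolce2 thus went in opposite directions.

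Lists of other lung cell types also had medians below 0 in the cancer control. The median against the normal control was -3.50 for 6 endothelial genes, -2.64 for 6 alveolar type 2 genes, -1.68 for 6 alveolar type 1 genes and -1.99 for 6 genes of smooth muscle and pericytes, against -3.74 for the members. All 6 endothelial and all 6 alveolar type 2 genes were lower by the limit. Of the alveolar type 1 genes 4 were lower and 1, Akap5 (2.55), was higher. Of the smooth muscle and pericyte genes 5 were lower and 1, Rgs5 (2.13, named after its values were seen), was higher. In the cancer exercise library against the normal control the medians were -0.62, -0.61, -0.13 and 0.01, against -0.96 for the members. The differences between these lists were not tested. The 6 cell division genes were higher in both tumor-bearing libraries, with medians of 5.10 and 3.31 against the normal control, and their part in the low levels of the members was not tested. Markers of mesothelium, the lining that touches the lung surface, had summed normalized counts of 743, 806, 3060 and 983 in the 4 libraries. Of its 4 genes, Msln was higher in the cancer control (2.48), Upk3b (-2.38) and Lrrn4 (-2.23) were lower and Wt1 was within the limit, with a median of -0.63. The medians of 3 adipocyte genes and 4 heart muscle genes were -1.71 and -2.08 in the cancer control against the normal control. The cartilage genes Col2a1, Acan and Matn1 had 0 to 7 reads in each library.

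**Figure D4:**
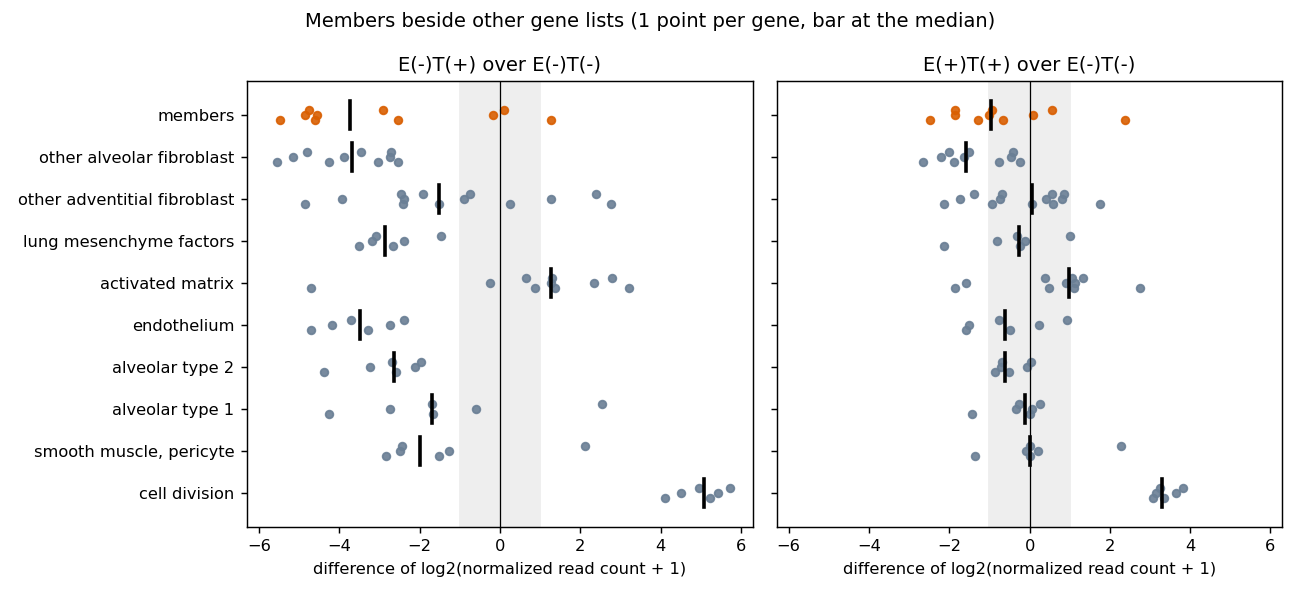
Difference of log2(normalized read count + 1) from E(-)T(-) (horizontal axis) in E(-)T(+) and in E(+)T(+), with 1 point per gene in each list (vertical axis), bars at list medians and shading for differences under 2-fold. The members and 2 other fibroblast or endothelial lists have medians at or below -3.50 in E(-)T(+), the activated matrix list lies at 1.28, and the members spread from -5.48 to 1.27.

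Likeness to the members was measured over the 4 libraries as the mean absolute distance of the 3 log2 differences from the normal control to the median differences of the members, which were -0.08, -3.74 and -0.96 in the normal exercise library, the cancer control and the cancer exercise library. Of 11206 other genes with a mean normalized read count of at least 50, the nearest was Rarres2 (distance 0.013), which encodes the secreted protein chemerin and had 7219, 6327, 415 and 2740 reads. Veph1 (0.035), Rmdn2 (0.077), Gucy1a3 (0.082), a subunit of the nitric oxide receptor, and Pvrl3 (0.086), a nectin, came next. Among the members Wnt2 was closest to that median, at 0.29, and Pi16 (2.32), Fgf10 (2.21) and Pdgfra (1.73) were farthest.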

How the data were processed

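The authors sequenced lung mRNA by QuantSeq 3' libraries, aligned reads with Bowtie2, counted them with bedtools and quantile-normalized them in edgeR. The submitters' notes name mm10. Tool versions, annotation and strand use are not given in the sources used here. The deposited values are log2(normalized read count + 1), 1 library for each of 4 groups. The deposited scale was inverted in Python 3.11.15 (NumPy 2.4.6, SciPy 1.17.1, pandas 2.3.3) to recover whole reads. All deposited values were matched within 0.001 log2, and the largest deviation was 0.00053.

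With 1 library per group no test across mice was possible, so no p-value is given. Differences are of deposited log2 values, and 95% intervals are exact Clopper-Pearson intervals of read ratios, scaled by effective library size, which cover counting error only. A difference of 2-fold was the limit, over the 15164 rows whose normalized counts averaged 4 or more. A count of 0 in a library allows up to 3 reads, which is 0.224 to 0.321 CPM. Alternatives were another pseudocount, other scalings, other filters and a limit of 3-fold.

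The members and lists were chosen with earlier results of these data known. Named genes are the members, genes among the 4 with the highest mean count in each list, and the 5 nearest to the members' median. Not all of those 4 are named for every list. Others are named as chosen afterwards, apart from the cartilage genes, which did not pass the mean count filter. No per-sample column was left unused. A gene of 1 marker list is not reported here.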

Additional observations from a re-analysis of the deposited data

Results flagged for a closer look

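For 4 members the exercise effect had opposite signs without and with tumor, with counting intervals that did not include 0 under the deposited scaling. Tcf21 stood at -0.54 without tumor and 3.47 with tumor on the log2 scale. Pcolce2 stood at -0.35 and 3.62, Inmt at -0.03 and 3.91, and Scn7a at -0.09 and 2.38. For Inmt and Scn7a this depends on the scaling: their differences without tumor were -0.01 and -0.06 under median-of-ratios factors, and intervals of the same width around these values include 0. The differences without tumor were all within the 2-fold limit. Each effect rests on 1 library per group, and the difference between the effects was not tested.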

How the results depend on the processing

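No paired analysis was possible because each group holds 1 library, and for the same reason no library could be left out. Under library totals alone, the median of the members moved to -3.64 for the tumor effect without exercise, 1.87 for the exercise effect with tumor, -1.25 for the tumor effect with exercise and -1.46 for both against untreated, and 8 members passed the limit in each of the last 2. Among all filtered genes, the split for the exercise effect with tumor became 2486 higher and 5371 lower, from 3685 and 2686. That for the tumor effect with exercise became 1440 and 3665, from 2259 and 1965, and that for both against untreated 1391 and 4342, from 2244 and 2178. Totals without hemoglobin genes gave a median of -1.14 for both against untreated. A pseudocount of 4 gave -3.60, and a mean normalized count of at least 100 gave -4.57, for the tumor effect without exercise. Pi16, with a mean of 96.12, did not pass that filter, so its higher level in the cancer exercise library was not counted under it. A limit of 3-fold left 3 members in the tumor effect with exercise, where 13.3% of all filtered genes passed it, 1209 higher and 811 lower.

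Of 50 single differences of members, 43 kept their side of the limit under library totals, 47 without hemoglobin genes, 46 at 3-fold, and 50 under median-of-ratios factors and under a pseudocount of 4. None past the limit changed sign. Pdgfra in both against untreated went from 0.08 to -0.42 under totals. Tcf21, Wnt2 and Mfap4 had 16 to 25 reads in E(-)T(+), which limits their folds.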
